A study of Mus musculus with 3 samples.

Results

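The transcription factor genes of bone and cartilage described here are Runx2, Sp7, Dlx3, Dlx5, Dlx6, Msx1, Msx2, Sox9 and Twist1. They were taken by name, and every probe set whose only gene symbol in the array's annotation is one of these 9 was included. Of the 9 genes 8 had such a probe set, 13 probe sets in all out of 45037, and 8 genes out of 18194 named on the array. Runx2 was not analysed here.

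The series holds 3 arrays of endosteal cells, which line the marrow side of bone, taken from C57BL/6 mice. The cells were freed by collagenase from fragments of thigh and shin bone, depleted of cells carrying CD45, CD31 or Ter119 (found on blood cells in general, on vessel lining cells and on red cell precursors), and sorted by Sca-1, found on progenitors, and by the adhesion molecule ALCAM. The group called ALCAM+ below is ALCAM(+) Sca-1(-). The group called Sca-1+ is ALCAM(-) Sca-1(+). Cells called double-negative are ALCAM(-) Sca-1(-) and carried neither sorting marker. No treatment or altered allele is given for any group. The age of the mice and whether animals were pooled are not given in the sources used here. Each population was measured on 1 array, so no difference has a replicate check, there is no test and no p-value, and the number of arrays limits the precision.

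Runx2 and Sp7 (Osterix) act in sequence to commit mesenchymal cells to the osteoblast fate, and Runx2 also drives the maturation of cartilage cells. Sox9, an HMG-box factor, establishes the chondrocyte fate and activates the genes of cartilage matrix. The homeobox genes of the Dlx and Msx families respond to BMP signals in skeletal cells, where Dlx factors promote and Msx factors mostly restrain osteoblast differentiation, and Twist1, a basic helix-loop-helix factor, holds mesenchymal cells immature, partly by binding Runx2.

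Values are deposited signals on a linear scale, scaled by the authors so that the 2% trimmed mean was 500 on each array. Signals under 75.4, the median of all probe sets other than controls over the 3 arrays, were treated as at the floor. A fold against such a value is a lower bound, written as "at least". The probe set of highest mean signal stands for its gene, and the other probe sets are given beside it. A gene was counted as higher or lower where its floored signals differed at least 4-fold, that is by 2 on the log2 scale. As a measure of technical disagreement, the brightest and the next probe set of the same gene, both above the floor throughout, differed over 4149 genes with an SD on the log2 scale of 0.54 for ALCAM+ against double-negative, 0.67 for Sca-1+ against double-negative and 0.74 for ALCAM+ against Sca-1+. This does not include the spread between sorts or animals. In sorted bulk samples fewer cells of a type and less RNA per cell cannot be told apart.

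The sort was followed by Alcam, the brightest probe set of which gave 267.7 in ALCAM+, 36.3 in double-negative and 41.1 in Sca-1+ cells. Red cell genes were seen on the double-negative array: 5 of 6 measured markers were at least 4-fold lower on both other arrays, and the list summed to a signal of 15913 there, 360 in ALCAM+ and 243 in Sca-1+ cells. The summed signal of 7 neutrophil markers was 383, 2952 and 14476 in ALCAM+, double-negative and Sca-1+ cells. These split: against double-negative cells, the Sca-1+ signal passed 4-fold on the high side for 5 and on the low side for 2, Mpo (91.4 against 1355) and Elane (63.5 against 483.0). Ptprc, the gene of CD45, gave 11.6 in ALCAM+, 159.4 in double-negative and 163.2 in Sca-1+ cells with its brighter probe set. Its other probe set was at the floor throughout. Of 5 endothelial markers, Pecam1, Cdh5 and Emcn were at the floor on the 3 arrays. Tek was above it in Sca-1+ cells, at 630.6, and Kdr just above it in ALCAM+ cells, at 76.7. Of 4 skeletal muscle markers only Acta1 rose above the floor, at 528.5 in ALCAM+ and 627.3 in double-negative cells. In Sca-1+ cells Acta1 was at the floor (51.2), at least 7.01-fold and at least 8.32-fold lower than in these. Both lymphoid markers with a named probe set were at the floor. None of 4 measured macrophage and osteoclast markers or 3 adipocyte markers passed 4-fold in any comparison. Sca-1 itself was not analysed here. Signal of blood cell genes therefore stood beside every difference that involves the Sca-1+ or the double-negative array, and its part in the results was not tested.

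The 8 genes did not share a single pattern. Sp7 and Dlx5, above the floor on the 3 arrays, had their highest signal in ALCAM+ cells. Dlx3, Dlx6 and Msx2 were above the floor in ALCAM+ cells only, so they counted among the 12644 measured genes, those with a signal over the floor on any array, through that array alone. Msx1 and Twist1 were highest in Sca-1+ cells. Sox9 was far lower in Sca-1+ than in both other populations, and its probe sets disagreed on which of those was highest. Of the 13 probe sets 10 rose above the floor on at least 1 array.

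**Figure D1:**
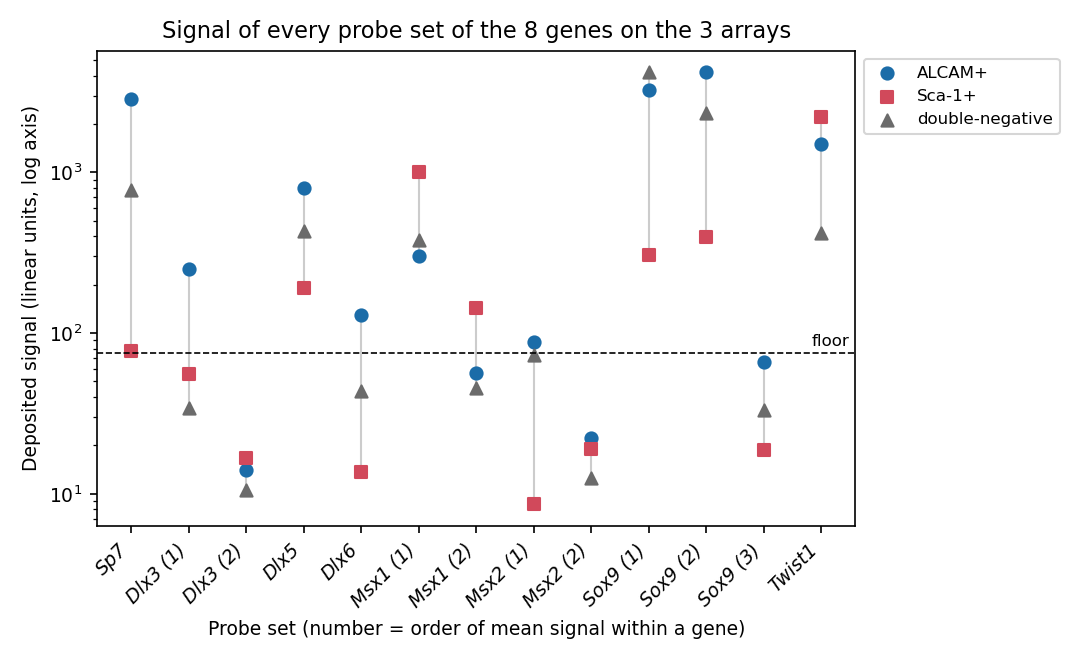
Deposited signal (vertical axis, log scale, linear signal units) of the 13 probe sets of the 8 genes on the 3 arrays, with 1 point per array and the floor of 75.4 as a dashed line; a number after a gene orders its probe sets by mean signal. Sp7 and the brighter 2 Sox9 probe sets have their lowest point in Sca-1+ cells, while Twist1 and both Msx1 probe sets have their highest point there.

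Sp7, the zinc finger factor required for osteoblast formation, gave 2868 in ALCAM+, 779 in double-negative and 77.7 in Sca-1+ cells. The Sca-1+ value lay just above the floor and the other values well above it. Sp7 was 10.03-fold lower in Sca-1+ than in double-negative cells (log2 difference -3.33) and 36.9-fold higher in ALCAM+ than in Sca-1+ cells (5.21). Between ALCAM+ and double-negative cells the difference was 3.68-fold (1.88), short of 4-fold. It was 1.25 under poly-A and 1.385 under hybridization scaling. These values exceed the probe-set SD of 0.54, which does not include the spread between sorts or animals. The call in Sca-1+ against double-negative was lost with the floor raised to 433.9, where the difference was -0.84, since the Sca-1+ signal is then at the floor. Sp7 has a single probe set, so no other one bears on its values.

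Dlx5, a homeobox activator of osteoblast genes, gave 803.6 in ALCAM+, 430.3 in double-negative and 189.7 in Sca-1+ cells, the same order as Sp7 over a narrower range. It was 4.24-fold higher in ALCAM+ than in Sca-1+ cells (2.08), which is close to the 4-fold limit. This call was lost when the arrays were scaled on the poly-A or hybridization spike-in controls (1.20 and 1.29) and with the floor at 433.9 (0.89). The other differences of Dlx5, 1.87-fold higher in ALCAM+ (0.90) and 2.27-fold lower in Sca-1+ cells (-1.18), both against double-negative cells, did not reach 4-fold.

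Dlx6, the neighbour of Dlx5 in the genome, gave 129.4 in ALCAM+, 43.9 in double-negative and 13.7 in Sca-1+ cells. Only the ALCAM+ value was above the floor, so Dlx6 exceeded either other population by at least 1.72-fold. The long non-coding RNA gene Dlx6os1, which lies beside Dlx6, gave 335.3, 264.1 and 35.1 in that order, a difference of at least 4.45-fold between ALCAM+ and Sca-1+ cells. That difference fell under 4-fold with either spike-in scaling (log2 1.64 and 1.72).

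Dlx3, a homeobox gene of bone, tooth and skin, gave 251.5 in ALCAM+, 34.4 in double-negative and 56.0 in Sca-1+ cells with its brighter probe set. ALCAM+ cells thus exceeded each other population by at least 3.34-fold. With the floor lowered to 21.1 the log2 difference against double-negative cells became 2.87 and that against Sca-1+ cells 2.17, past 4-fold in both cases. Other settings made the log2 difference smaller than the 1.74 of the main setting. Against either population it was 1.22 under poly-A scaling and 1.30 under hybridization scaling. With the Dlx3 probe sets averaged it was 0.87, and with the floor at 433.9, above every Dlx3 signal, it was 0.0. The other Dlx3 probe set stayed between 10.5 and 16.8 and measured nothing above the floor. Dlx4, which lies near Dlx3, went another way, with 101.1 in ALCAM+, 83.6 in double-negative and 171.5 in Sca-1+ cells, and in each comparison the second Dlx4 probe set had the opposite sign. Dlx1, Dlx2 and Msx3 were at the floor on the 3 arrays.

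Msx2, a homeobox repressor active in skull and limb, gave 88.4 in ALCAM+, 72.7 in double-negative and 8.6 in Sca-1+ cells. Only the first of these was above the floor, and only slightly. The difference against double-negative cells was at least 1.17-fold (0.23) and took the opposite sign under poly-A scaling (-0.06) and hybridization scaling (-0.01). The other Msx2 probe set stayed between 12.6 and 22.3. No order of the populations can be given for Msx2 at this signal.

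Msx1 went the other way from Sp7 and the Dlx genes. Its brighter probe set gave 301.4 in ALCAM+, 379.5 in double-negative and 1001 in Sca-1+ cells, and its other probe set 56.7, 45.7 and 142.9. Both were highest in Sca-1+ cells. By the brighter one Msx1 was 2.64-fold higher in Sca-1+ than in double-negative cells (1.40) and 3.32-fold lower in ALCAM+ than in Sca-1+ cells (-1.73), under 4-fold in each case. Scaling on the poly-A or hybridization controls took the second of these past 4-fold (-2.62 and -2.52). ALCAM+ and double-negative cells differed by 1.26-fold (-0.33), less than the probe-set SD of 0.54, but by -0.96 and -0.83 under poly-A and hybridization scaling.

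Twist1 gave 1509 in ALCAM+, 419.1 in double-negative and 2204 in Sca-1+ cells, from a single probe set. It was high in both marker-positive populations and lowest in double-negative cells, an order not seen in the brightest probe set of any other member. The gene was 5.26-fold higher in Sca-1+ than in double-negative cells (2.39), and this log2 difference lay between 2.34 and 2.69 under the alternatives that gave it a value. In ALCAM+ cells Twist1 was 3.60-fold higher than in double-negative cells (1.85), and ALCAM+ and Sca-1+ cells differed by 1.46-fold (-0.55), less than the probe-set SD of 0.74, though by -1.43 and -1.34 under poly-A and hybridization scaling.

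Sequences upstream of the start are shown for Msx1 and Twist1 because both were highest in Sca-1+ cells. They are the 250 bases before the start, read 5′ to 3′ on the gene's strand, from RefSeq on GRCm38.p6; 4 of the 9 genes were matched in that promoter table, the others being Msx2 and Runx2. Capitals mark matches, on either strand, to any of 6 motifs searched by their letters: TGTGGT for Runx factors, TAATTA for homeodomain factors, CATATG as an E-box, ACAAAG for Sox factors, GGGCGG as the GC box and TATAAA as the TATA box.
Msx1, chr5:37824586-37824835, minus strand: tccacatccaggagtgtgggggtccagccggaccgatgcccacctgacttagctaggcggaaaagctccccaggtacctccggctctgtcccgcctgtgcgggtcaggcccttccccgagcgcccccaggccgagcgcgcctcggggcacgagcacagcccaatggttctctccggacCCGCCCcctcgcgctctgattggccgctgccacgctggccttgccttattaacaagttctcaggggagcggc
Twist1, chr12:33957421-33957670, plus strand: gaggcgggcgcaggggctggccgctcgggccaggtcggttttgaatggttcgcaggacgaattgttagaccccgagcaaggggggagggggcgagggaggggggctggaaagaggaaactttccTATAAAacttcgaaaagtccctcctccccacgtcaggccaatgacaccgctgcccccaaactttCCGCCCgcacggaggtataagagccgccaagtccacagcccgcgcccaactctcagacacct

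Both windows held a GC box on the reverse strand, its first base 72 bases before the start in Msx1 and 62 before it in Twist1, as did 32.7% of 32851 promoters on either strand. Twist1 also held a TATA box sequence 126 bases before the start, which 12.4% of promoters had. The G and C content was 68.0% for Msx1 and 62.4% for Twist1, above the median of 52.4% over all promoters. The Runx, homeodomain, E-box and Sox letters, found in 14.0%, 4.84%, 3.46% and 16.5% of promoters, did not occur in these 2 windows. A match of letters is a description and not a binding site.

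Sox9 had its lowest signal in Sca-1+ cells in both of its probe sets above the floor. The brightest gave 3249 in ALCAM+, 4187 in double-negative and 306.0 in Sca-1+ cells, and the next 4195, 2356 and 398.6. The third stayed below the floor, at 66.3, 33.0 and 18.7. Sox9 was 13.7-fold lower in Sca-1+ than in double-negative cells by the brightest probe set (-3.77) and 5.91-fold lower by the next (-2.56). Against Sca-1+ cells ALCAM+ cells were 10.6-fold and 10.5-fold higher by these probe sets (3.41 and 3.40), so they measured nearly the same difference. Between ALCAM+ and double-negative cells the probe sets pointed in opposite directions, at -0.37 and 0.83, and averaging all 3, the third of which enters as 0, gave 0.16. Both probe sets are annotated to the same cDNA, and which of these populations had more Sox9 was not settled by these arrays.

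Chondrocyte markers moved with Sox9: the summed signal of 5 of them, of which 5 of 5 were at least 4-fold lower in Sca-1+ than in double-negative cells, was 139959 in ALCAM+, 113340 in double-negative and 4050 in Sca-1+ cells. The 4 osteoblast markers with a named probe set summed to 119594, 44569 and 8510, in the order of Sp7. Of these 4, 2 were at least 4-fold lower in Sca-1+ than in double-negative cells, against 4.71% of all genes. Ifitm5 was 3.54-fold and Col1a1 1.64-fold lower there, and Col1a1 gave 7959 of the Sca-1+ sum. These chondrocyte and osteoblast markers are also among the target genes of Sox9 and of Runx2 and Sp7 described below, so they are not separate observations. The 5 fibroblast markers summed to 5558, 2283 and 77869, and were highest, as Twist1 and Msx1 were, in Sca-1+ cells. Most of the ALCAM+ sum was Pdgfra, at 5122 against 671.5 in double-negative cells. Cd34, Dpt and Thy1 were lower in ALCAM+ than in double-negative cells, and Pi16 was at the floor in both. The part of such differences in cell makeup in the values of the 8 genes was not tested.

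Between ALCAM+ and double-negative cells 0 of the 8 genes were at least 4-fold higher and 0 lower, where 2.01% of all 12644 genes were higher and 2.67% lower. Scaling on the poly-A controls turned that split over all genes to 1.12% and 5.18%, and on the hybridization controls to 1.28% and 4.38%. The median log2 difference was 0.84 over the 8 genes and -0.03 over all genes. Dlx3, Dlx6 and Msx2 enter the first of these as lower bounds. They were counted as measured through the ALCAM+ array alone, so they could not come out lower in ALCAM+ cells. Sp7, Twist1 and Dlx3 came closest to 4-fold, at 1.88, 1.85 and at least 1.74. With a limit of 2-fold these 3 genes were higher, against 6.68% of all genes, and 0 were lower, against 10.6% of all genes.

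Between Sca-1+ and double-negative cells Twist1 was higher, 1 of 8 genes against 5.46% of all genes, and Sp7 and Sox9 were lower, 2 of 8 against 4.71%. Under poly-A scaling the shares over all genes were 7.17% and 4.12%, and under hybridization scaling 7.42% and 4.02%. The median was 0.00 over the 8 genes and 0.00 over all genes. That of the 8 genes was set by Dlx3, Dlx6 and Msx2, which enter as 0, and does not describe the other members. With a limit of 2-fold Msx1 and Twist1 were higher, against 15.0% of all genes, and Sp7, Dlx5 and Sox9 lower, against 12.7%. The members therefore went both ways, and Dlx3, Dlx6 and Msx2 could not be compared because both values were at the floor.

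Between ALCAM+ and Sca-1+ cells Sp7, Dlx5 and Sox9 were higher, 3 of 8 genes against 3.99% of all genes, and 0 were lower against 5.86%. The shares over all genes were 2.12% and 12.3% under poly-A scaling and 2.26% and 11.3% under hybridization scaling. Under each of these, 2 of the 8 genes were higher (Sp7 and Sox9) and 1 was lower (Msx1). Without such scaling the median was 1.26 over the 8 genes and -0.01 over all genes. The first of these lies between Dlx6 (at least 0.78) and Dlx3 (at least 1.74). Both, like Msx2, were counted as measured through the ALCAM+ array alone and could not come out lower there. With a limit of 2-fold Sp7, Dlx3, Dlx5 and Sox9 were higher, against 11.2% of all genes, and Msx1 lower, against 15.8%. This comparison is the difference of the other two, shares its arrays with them and adds no separate measurement.

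**Figure D2:**
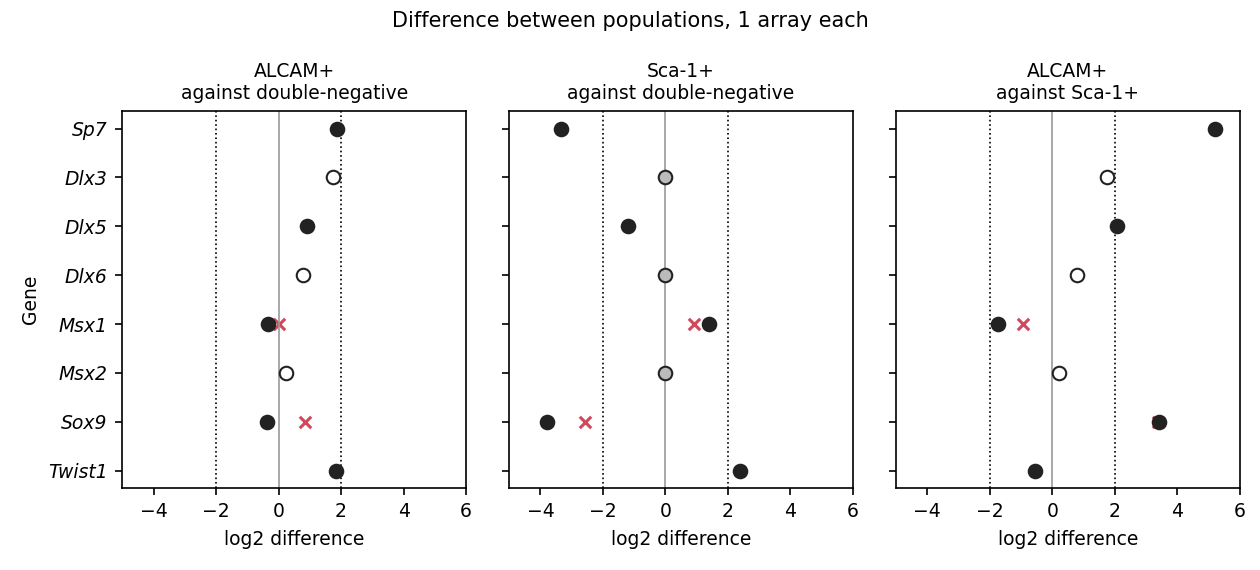
Log2 difference (horizontal axis) of the 8 genes in the 3 comparisons, each from 1 array per population; filled points are measured on both arrays, open points are lower bounds, grey points have both values at the floor, red crosses are other probe sets above the floor on an array, and dotted lines mark 4-fold. Sp7 and Sox9 pass 4-fold in both comparisons that involve Sca-1+ cells, and the cross of Sox9 lies on the other side of 0 from its point for ALCAM+ against double-negative cells.

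Of 18 measured partners and regulators of Runx2 and Sp7, 0 passed 4-fold in either direction between ALCAM+ and double-negative cells, where 2.01% of all genes were higher and 2.67% lower, and the median was 0.12. The differences reached -1.76 for Runx3, whose other probe set had the opposite sign, and 1.33 for Mef2c. Cbfb, which encodes the binding partner of all Runx factors, gave 9202 in ALCAM+, 7829 in double-negative and 4051 in Sca-1+ cells. In Sca-1+ against double-negative cells 1 of 18 was higher, against 5.46% of all genes, and 3 were lower, against 4.71%, with a median of -0.07. Mef2c, a driver of cartilage hypertrophy, was 5.57-fold lower there, with 11771 in ALCAM+, 4676 in double-negative and 839.2 in Sca-1+ cells. Hivep3, which encodes a factor that promotes the degradation of Runx2, was 8.76-fold lower (663.7 against 5817), but its next probe set gave a log2 difference of only -0.72. Smurf1, a ubiquitin ligase gene, was 4.32-fold higher, at 915.3 against 211.9, and by its other probe set 0.59 on the log2 scale.

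The Runx genes other than Runx2 parted company. Runx1, best known from blood formation, gave 214.6 in ALCAM+, 322.7 in double-negative and 896.5 in Sca-1+ cells, 4.18-fold lower in ALCAM+ than in Sca-1+ cells. Among the 5 remaining Runx1 probe sets 2 had the opposite sign, and the mean of all was -0.94. Runx3, which acts with Runx2 in cartilage maturation, gave 151.2, 510.8 and 35.1, at least 6.78-fold lower in Sca-1+ than in double-negative cells. Its other probe set was at the floor on both of these arrays, so 1 probe set carries that difference. In ALCAM+ cells that other probe set was above the floor. The probe sets thus disagreed on whether ALCAM+ or double-negative cells had more Runx3. In ALCAM+ against Sca-1+ cells 2 of 18 genes of this list were higher (Mef2c, 14.0-fold, and Hivep3, 8.97-fold, though 0.09 on the log2 scale by its next probe set) and 2 lower (Runx1 and Hdac4, 4.15-fold), with a median of 0.08. Over all genes 3.99% were higher and 5.86% lower. The calls of Runx1 and Hdac4 were lost after quantile normalization (-1.97 and -1.96) and by their next probe sets (-0.81 and -0.40), so each rests on 1 probe set.

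Partners of Sox9 and other cartilage regulators were lower in Sca-1+ than in double-negative cells in 5 of 11 measured cases and higher in 1, with a median of -1.49. Over all genes 4.71% were lower and 5.46% higher. Sox6 gave 947.5 in ALCAM+, 2348 in double-negative and 373.8 in Sca-1+ cells, and Sox5 604.2, 1505 and 347.3; both encode partners that bind cartilage enhancers with Sox9. They were 6.28-fold and 4.33-fold lower in Sca-1+ than in double-negative cells, and their highest values were in double-negative and not in ALCAM+ cells. The call of Sox5 was lost under 5 alternatives, with log2 differences from -1.21 to -1.86. Wwp2, a ubiquitin ligase gene active in cartilage, was 11.2-fold lower, at 861.8 against 9649.

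Foxa2 and Foxa3, forkhead factors of hypertrophic cartilage, were at the floor in Sca-1+ cells only. Foxa2 gave 980.2 in ALCAM+ and 354.8 in double-negative cells, and Foxa3 gave 883 and 749.5. They were at least 4.71-fold and at least 9.94-fold lower in Sca-1+ than in double-negative cells. Arid5b, a coactivator of Sox9, went against the list, with 1091 in ALCAM+, 518.2 in double-negative and 3303 in Sca-1+ cells, 6.37-fold higher in Sca-1+ than in double-negative cells (1.54 on the log2 scale with its probe sets averaged). In ALCAM+ against double-negative cells 0 of 11 were higher, against 2.01% of all genes, and 0 lower, against 2.67%, with a median of -0.53. Against Sca-1+ cells 3 of 11 were higher in ALCAM+ cells (Foxa2, Foxa3 and Wwp2, the last at 1.83 by its next probe set) and 0 lower, with a median of 0.84. Over all genes 3.99% were higher and 5.86% lower.

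Among 14 measured partners and relatives of Twist1, Twist2 and Zeb2 passed 4-fold on the high side in Sca-1+ against double-negative cells, 0 were lower, and the median was 0.46. Over all genes 5.46% were higher and 4.71% lower. Twist2, the closest relative of Twist1, gave 67.0 in ALCAM+, 152.7 in double-negative and 1001 in Sca-1+ cells. It was 6.55-fold higher in Sca-1+ than in double-negative cells and at least 13.3-fold lower in ALCAM+ than in Sca-1+ cells. Twist1 and Twist2 thus differed in ALCAM+ cells, where Twist1 was well above its double-negative value and Twist2 was at the floor.

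Zeb2, a repressor linked to mesenchymal state, gave 1426 in ALCAM+, 235.5 in double-negative and 1458 in Sca-1+ cells, and was 6.06-fold and 6.19-fold higher in ALCAM+ and in Sca-1+ than in double-negative cells. Over all genes 2.01% were higher in ALCAM+ than in double-negative cells and 2.67% lower. Of this list Zeb2 was the only gene past 4-fold there, where 0 were lower and the median was 0.06. That call was lost by its next probe set (1.87) and under poly-A scaling (1.97). In ALCAM+ against Sca-1+ cells Twist2 was the only gene lower, against 5.86% of all genes, 0 were higher, against 3.99%, and the median was -0.30. The E-protein genes Tcf3, Tcf4 and Tcf12, whose products pair with Twist1, and Id1 to Id4, whose products block such pairing, stayed under 4-fold in the 3 comparisons.

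Target genes of the members were set beside them without a link being tested. Of 9 measured osteoblast targets of Runx2 and Sp7, 3 were higher in ALCAM+ than in double-negative cells and 0 lower, with a median of 1.56: Ifitm5, Phex and Dmp1 had log2 differences of 4.60, 3.84 and 5.81, against 1.88 for Sp7. Over all genes 2.01% were higher and 2.67% lower. In Sca-1+ against double-negative cells, where 4.71% of all genes were lower and 5.46% higher, 3 of 9 were lower (Ibsp at -6.82, or -3.01 by its next probe set, Alpl at -5.43 and Vdr, the vitamin D receptor gene, at -2.65) and 0 higher, with a median of -0.72. Col1a2 and Sparc, which fibroblasts also express, stayed at -0.17 and -0.58. In ALCAM+ against Sca-1+ cells 7 of 9 were higher, against 3.99% of all genes, and 0 lower, against 5.86%, with a median of 4.21. One of the 7, Col1a1 at 2.64, fell under 4-fold with poly-A and hybridization scaling (1.75 and 1.85).

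Of 14 measured cartilage targets of Sox9, 13 were lower in Sca-1+ than in double-negative cells, against 4.71% of all genes, and 0 higher, against 5.46%. Their median was -6.13, where Sox9 itself was at -3.77. The exception was Comp, a matrix gene shared with tendon, at 25933 in Sca-1+ and 30884 in double-negative cells. In ALCAM+ against double-negative cells the median was 0.13, with 1 higher, against 2.01% of all genes, and 0 lower, against 2.67%. That gene was Matn1, at 12270 against 2933, and its 4.18-fold difference fell under 4-fold after quantile normalization (1.98) and under both spike-in scalings (1.44 and 1.57). In ALCAM+ against Sca-1+ cells 13 were higher, against 3.99% of all genes, and 0 lower, against 5.86%, with a median of 6.34.

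Hypertrophic cartilage genes were lower in Sca-1+ than in double-negative cells in 5 of 6 cases, with 0 higher and a median of -3.75. Over all genes 4.71% were lower and 5.46% higher. In ALCAM+ cells Ihh, the hedgehog ligand gene of maturing cartilage, gave 2204 against 837.7 in double-negative and 64.1 in Sca-1+ cells, and Mmp13, a collagenase gene activated by Runx2, gave 2752, 1622 and 211.6. Col10a1 was the 1 gene of 6 past 4-fold in ALCAM+ against double-negative cells (2.07, but 1.84 after quantile normalization and 1.44 and 1.57 under poly-A and hybridization scaling), with 0 lower and a median of 0.73. Over all genes 2.01% were higher and 2.67% lower. All 6 genes of this list were higher in ALCAM+ than in Sca-1+ cells, against 3.99% of all genes, with a median of 4.63. Vegfa, at 2.32, fell under 4-fold with poly-A and hybridization scaling (1.43 and 1.52), and Panx3 by its next probe set (1.52 against 7.72).

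**Figure D3:**
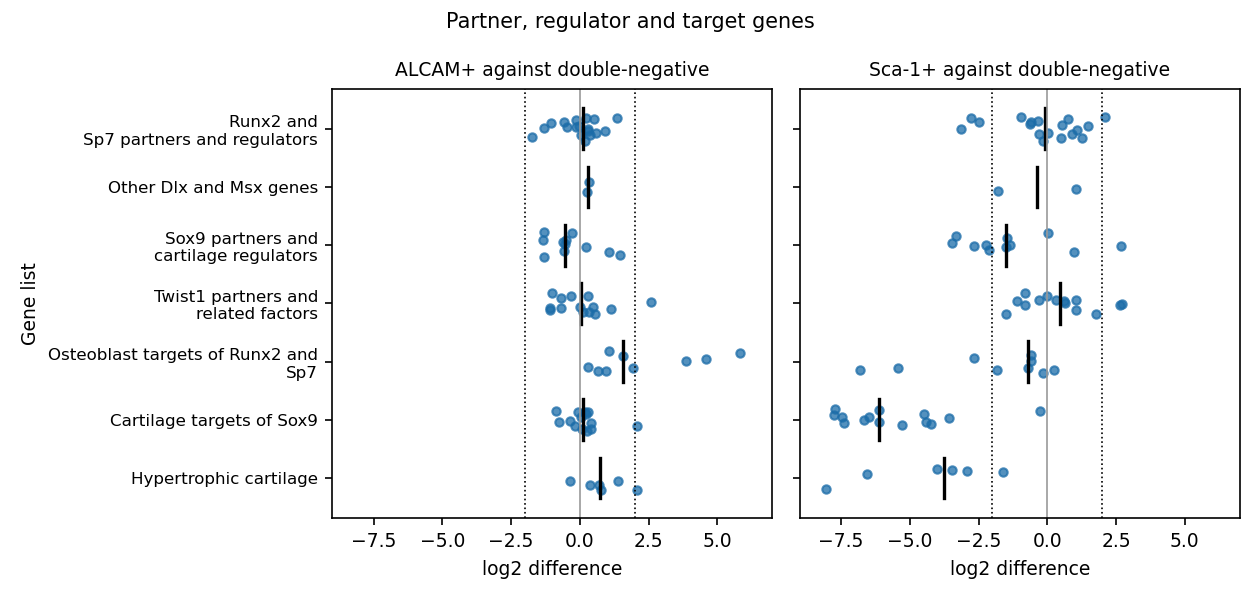
Log2 difference (horizontal axis) of each measured gene of 7 lists (rows), for ALCAM+ and for Sca-1+ against double-negative cells; points are genes, black bars are list medians and dotted lines mark 4-fold. Cartilage targets of Sox9 centre on 0.13 in the first comparison and on -6.13 in the second.

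The genes with the most similar pattern to each member were taken as those with the smallest Euclidean distance between log2 signals over the 3 arrays, after each gene's own mean was taken off. With 3 arrays many genes can match a pattern, so this is a description. For Sp7 they were Agt, Bmp8a and Ccn4, at distances of 0.18, 0.21 and 0.32 on the log2 scale. Bmp8a gave 2909 in ALCAM+, 799.2 in double-negative and 94.9 in Sca-1+ cells. For Dlx5 they were Slc19a3, Rnf149 and Cpne8, for Msx1 Parp9, Rhobtb3 and Trim12c, and for Sox9 Pmf1, Homer1 and Phlda2.

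For Twist1 the nearest were Jam2 (0.064), Gab2 (0.070) and Pcdh18 (0.12), with Jam2 at 1317 in ALCAM+, 352.7 in double-negative and 1807 in Sca-1+ cells. Dlx3, Dlx6 and Msx2 were above the floor in ALCAM+ cells only, so their nearest genes are those with a like ALCAM+ signal and floor values elsewhere. They were Col4a6, Gpr37 and Alcam itself for Dlx3, Fbxl19, Cavin4 and Mfsd4b1 for Dlx6, and Trp63, Rasgrp2 and Rasl2-9 for Msx2.

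Under other settings the 6 member differences past 4-fold changed sign in none of the alternatives that gave them a value. Scaling on spike-in controls moved the median of all genes to -0.58 (poly-A) and -0.46 (hybridization) in ALCAM+ against double-negative cells, to 0.20 and 0.24 in Sca-1+ against double-negative cells and to -0.82 and -0.74 in ALCAM+ against Sca-1+ cells. Raising the floor to 433.9 took Runx3, Smurf1, Sox5, Foxa2, Foxa3, Twist2, Zeb2, Vdr, Ihh and Mmp13 under 4-fold in Sca-1+ against double-negative cells. Against the scaling shifts Sp7 stood at 1.25 under poly-A scaling in the first comparison and at 4.32 in the third, and Twist1 at 1.22 in the first.

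**Figure D4:**
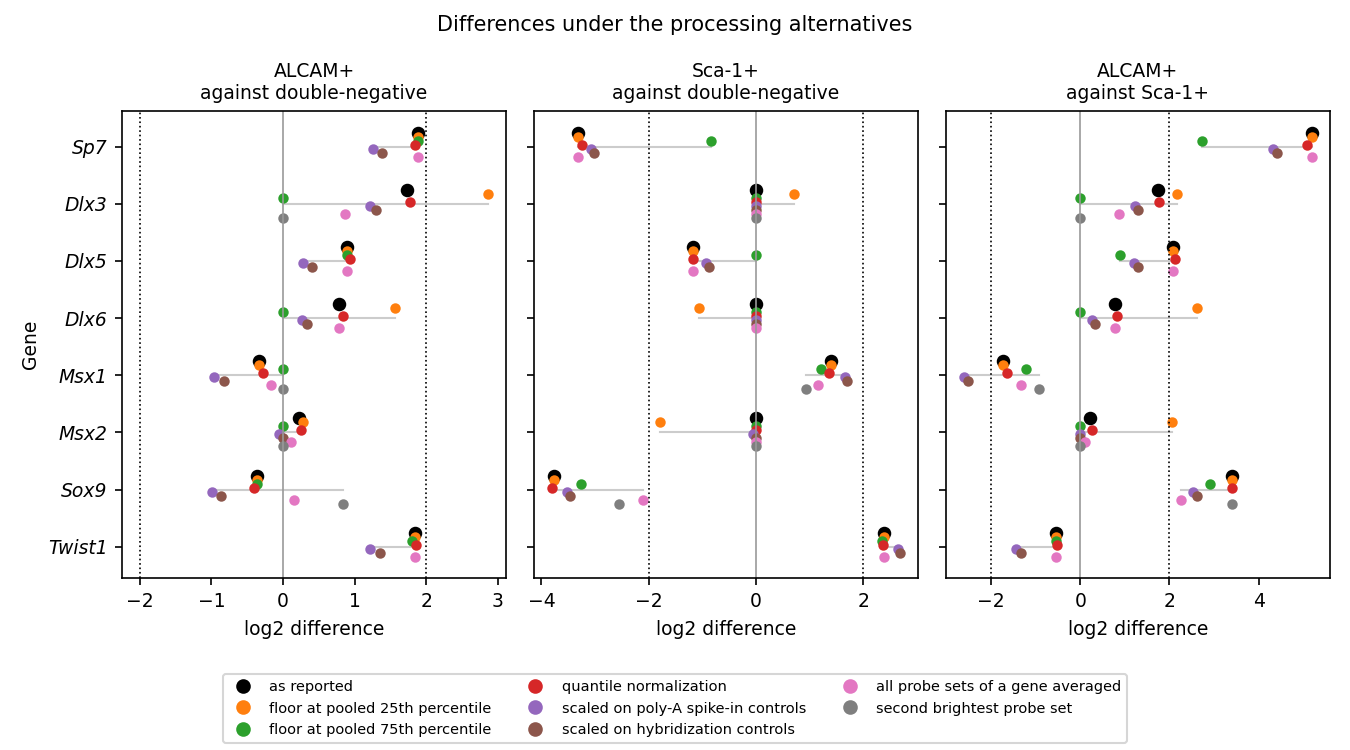
Log2 difference (horizontal axis) of the 8 genes in the 3 comparisons under each processing setting; black points are the values as reported, coloured points the alternatives, grey lines their range, and dotted lines mark 4-fold. Twist1 stays between 2.34 and 2.69 in Sca-1+ against double-negative cells, whereas Dlx3, Dlx6 and Msx2 move with the floor.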

How the data were processed

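Total RNA of 3 sorted populations was labelled with biotin by a 2-cycle assay, per the labels' protocols, with 1 array per population. The authors deposited linear signal intensities for 45101 probe sets; the submitters' processing notes name MAS5 without a version. The 64 control probe sets named no gene. Of the others 34958 had 1 gene symbol, 932 several and 9147 none listed; symbols were updated by Entrez identifier (0 changed). Signals were raised to a floor of 75.4 and turned to log2 in Python 3.11.15 with pandas 2.3.3, and genes were called at 4-fold with no test. 2-cycle amplification favours 3′ ends, and equal scaling hides differences in RNA per cell.

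Named were all members, up to 5 genes of each list at least 4-fold apart (fewer are printed, with others named for contrast after their values were seen), and the 3 nearest patterns. The members and lists were chosen with earlier results of these data known. Genes of a list that no probe set names were not analysed. The steps were tested on simulated data. The 8 alternatives were other floors, quantile normalization, 2 spike-in scalings (24 poly-A and 18 hybridization probe sets), other probe sets and a 2-fold limit.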

Additional observations from a re-analysis of the deposited data

How the results depend on the processing

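The count of members higher in ALCAM+ than in double-negative cells went from 0 to 1 (Dlx3) when the floor was lowered to 21.1 and to 3 with a 2-fold limit. Over all genes 2.26% and 6.68% were higher under these settings. For Sca-1+ against double-negative cells the higher count went from 1 to 0 with the second brightest probe set, which measured only 2 members, and to 2 with the 2-fold limit (Msx1 and Twist1). The shares of all genes were 3.99% and 15%. The lower count went from 2 to 1 (Sox9) when the floor was raised to 433.9 and with the second brightest probe set, and to 3 with the 2-fold limit. The shares of all genes were 2.65%, 3.3% and 12.7%. With the floor at 433.9 only 5 members were measured, so counts there are of a smaller set. For ALCAM+ against Sca-1+ cells the higher count went from 3 to 6 with the floor at 21.1, where Dlx3, Dlx6 and Msx2 joined Sp7, Dlx5 and Sox9. Over all genes 4.38% were higher at that floor. The higher count went to 2 (Sp7 and Sox9) under either spike-in scaling and with the floor at 433.9. The shares of all genes were 2.12% (poly-A), 2.26% (hybridization) and 3.04%. With the 2-fold limit the higher count went to 4, against 11.2% of all genes. With the second brightest probe set it went to 1, against 3.4%. The lower count of this comparison went from 0 to 1 (Msx1) under either spike-in scaling and with the 2-fold limit. The shares of all genes were 12.3% (poly-A), 11.3% (hybridization) and 15.8%. Of 156 member differences under alternatives 117 moved by less than 1.5-fold and 39 by more. Of 483 for the 41 list genes, in the comparisons where they passed 4-fold, 320 and 163 did, and 0 called values of either kind changed sign. Part of these counts was fixed in advance. Sp7, Dlx5, Dlx6 and Twist1 have a single probe set, so averaging returned the same value. Differences with both values at the floor mostly stayed at 0, and a changed floor alone cannot reverse a sign. No paired analysis was possible because each population has 1 array, and for the same reason no replicate could be left out. Signals near the floor limit Dlx3, Dlx6 and Msx2.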
